A study of Homo sapiens with 6 samples.

Results

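The 37 genes of the human mitochondrial genome are described here in KARPAS-45, an established line of human T-cell acute lymphoblastic leukaemia, with and without overexpression of the transcription factor MEF2C. They were taken as all genes whose symbol begins with MT-, which gave 13 protein-coding, 2 ribosomal RNA (rRNA) and 22 transfer RNA (tRNA) genes among 78932 gene identifiers. Of the 37, 24 passed the filter on low counts and were tested among 19086 genes: all 13 coding genes, both rRNA genes and 9 tRNA genes. The 6 libraries formed 2 groups of 3. Control cells are labelled as wild type and untreated. MEF2C-OE cells carried a lentiviral MEF2C driven by the EF1A promoter and linked to the fluorescent protein mCherry, and mCherry-positive cells were collected by flow sorting 120 hours after transduction. The sources used here do not state whether control cells were exposed to a vector or passed through a sorter, and all 6 libraries come from 1 line labelled as leukaemic blasts of the bone marrow. The labels call the replicates technical: p-values therefore reflect the spread between these libraries alone, and n counts libraries.

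The mitochondrial genome is a small circle that is transcribed in full from both strands. The long primary transcripts are cut at the tRNAs that lie between the messages, which releases mRNAs, rRNAs and tRNAs. The coding genes supply core subunits of respiratory complexes I, III, IV and V, the rRNAs and tRNAs serve the translation of those subunits inside the organelle, and every other protein involved is encoded in the nucleus. Of the 37 genes, 28 are transcribed from the heavy strand (annotated on the plus strand of the reference) and 9 from the light strand (annotated on the minus strand): MT-ND6 and the tRNA genes MT-TQ, MT-TA, MT-TN, MT-TC, MT-TY, MT-TS1, MT-TE and MT-TP.

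Assigned reads numbered 51198955 to 56405139 per control library and 48218497 to 56890745 per MEF2C-OE library, the lowest total being that of MEF2C-OE replicate 2. MEF2C had 10, 1 and 0 reads in the control libraries and 40, 29 and 41 in the MEF2C-OE libraries. Its log2 fold change (log2FC, MEF2C-OE over control) was 3.28 (SE 0.60, adjusted p = 1.50e-05 by edgeR's quasi-likelihood test). All 8 T-lineage markers examined were detected, with summed levels of 2672 to 2689 counts per 1000000 reads (CPM) in the control and 2285 to 2404 CPM in the MEF2C-OE libraries, and 5 of the 8 fell and 1 rose (PTCRA, 0.23), where 20.2% of all genes were called lower and 20.8% higher. The B-cell marker MS4A1 and the erythroid marker HBB had 0 reads in each library. The summed levels of 4 B-lineage markers were 10.1 to 11.6 CPM against 9.43 to 11.0 CPM, and those of 4 myeloid markers 0.491 to 1.02 CPM against 0.491 to 0.721 CPM. The summed levels of 3 stromal markers were 5.34 to 6.16 CPM against 1.33 to 1.87 CPM, and those of 3 erythroid markers reached at most 0.0352 CPM. The part of these differences in the values below was not tested.

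Transcripts of the mitochondrial genome took a slightly smaller share of the reads in the MEF2C-OE libraries. The 37 genes held 2.57%, 2.62% and 2.55% of assigned reads in the control libraries and 2.43%, 2.20% and 2.51% in the MEF2C-OE libraries. The means were 2.58 ± 0.0328% and 2.38 ± 0.162% (SD, n = 3), a log2 ratio of -0.12. The groups did not overlap, but MEF2C-OE replicate 3 lay close to the lowest control library and replicate 2 stood well below the rest. An exact two-sided permutation test gave p = 0.1, the smallest value that 3 against 3 libraries allow (adjusted p = 0.129 over the 9 share measures computed). Without MEF2C-OE replicate 2 the log2 ratio was -0.064. A share is relative to the nuclear reads, and in bulk RNA fewer transcripts per cell and a different mix of cells cannot be told apart.

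The classes were unequal in size and in the distance between the groups. The 13 coding genes held most of the reads, with 2.29 ± 0.0253% in the control and 2.11 ± 0.142% in the MEF2C-OE libraries. The rRNA genes held 0.279%, 0.302% and 0.289% of reads in the control libraries and 0.267%, 0.239% and 0.278% in the MEF2C-OE libraries, and the gap between the groups was smaller than the spread within either. Exact permutation tests gave p = 0.1 for the coding, the rRNA and the tRNA share. Without MEF2C-OE replicate 2 the log2 ratio was -0.061 for the coding and -0.089 for the rRNA genes. The tRNA genes drew very few reads, 776, 776 and 727 in the control libraries and 549, 493 and 640 in the MEF2C-OE libraries. As a share this was 0.00142 ± 4.2e-05% against 0.00105 ± 6.55e-05%, a log2 ratio of -0.43. All 3 MEF2C-OE libraries lay well below the controls. The sum rests on few genes: MT-TQ, MT-TP and MT-TS1 had 127, 208 and 238 of the 776 reads in control replicate 1. Of 22 tRNA genes 9 were tested, and 2 of them, MT-TQ and MT-TP, were called lower.

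**Figure D1:**
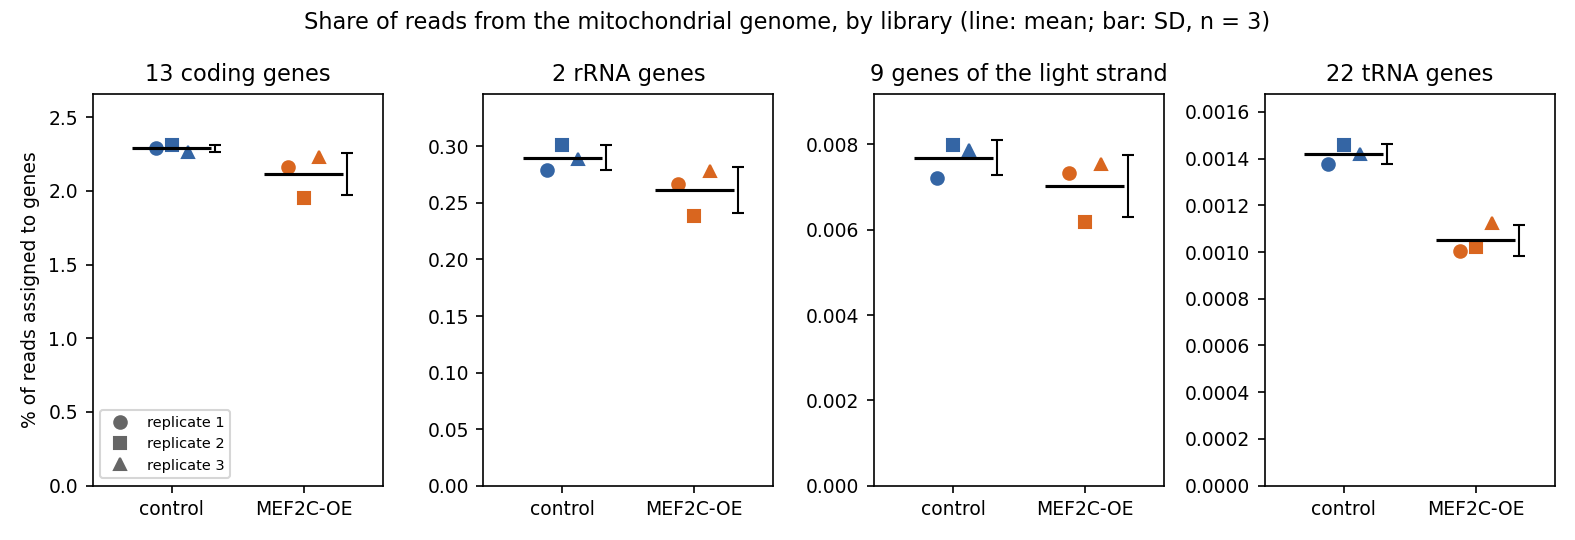
Share of assigned reads (%, vertical axes from 0, each panel with its own scale) for the coding, rRNA, light-strand and tRNA genes in each library; symbols mark replicates, lines the means and bars the SD (n = 3). MEF2C-OE replicate 2 is the lowest library for the coding, rRNA and light-strand genes, whereas the tRNA share of each MEF2C-OE library lies below every control library.

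By strand of transcription, the totals moved little apart. The 28 genes transcribed from the heavy strand held 2.57 ± 0.0326% of reads in the control and 2.37 ± 0.161% in the MEF2C-OE libraries, a log2 ratio of -0.12 with no overlap. The 9 genes transcribed from the light strand held 0.00769 ± 0.000417% and 0.00702 ± 0.000729%, a log2 ratio of -0.13, and the groups overlapped (exact permutation p = 0.3, adjusted p = 0.338). Without MEF2C-OE replicate 2 the log2 ratios were -0.065 for the heavy and -0.049 for the light strand. Light-strand reads per 1000 heavy-strand reads were 2.81, 3.06 and 3.09 in the control and 3.02, 2.83 and 3.02 in the MEF2C-OE libraries, with no separation between the groups. The light-strand total was mostly MT-ND6, and the 8 light-strand tRNA genes alone differed more, with a log2 ratio of -0.46 and no overlap. The 14 heavy-strand tRNA genes had 48 to 84 reads per library in sum, and the groups overlapped. The overlap came from MEF2C-OE replicate 2 with 84 reads, against 54 and 48 in replicates 1 and 3 and 71 to 78 in the control. The log2 ratio was -0.20. Without MEF2C-OE replicate 2 it was -0.58, beside -0.40 for the 8 light-strand tRNA genes. The sources used here do not state whether the counting used strand. Of 246 genes enclosed in exons of a gene on the same strand with 50 CPM or more, 244 had no reads in these files, whereas 55 of 187 enclosed on the opposite strand had none. Whether RNA of the heavy-strand transcripts supplied part of the reads counted for light-strand genes was not tested.

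MEF2C-OE replicate 2 was low for nearly all coding and rRNA genes, but not for the tRNA genes in sum. Its tRNA share was 0.00102%, between 0.00100% and 0.00112% in MEF2C-OE replicates 1 and 3. Among the 15 coding and rRNA genes replicate 2 was the lowest MEF2C-OE library for 14. Its log2 ratio to the mean of the other MEF2C-OE libraries had a median of -0.20 (range -0.36 to -0.01). The same ratio over 4942 nuclear genes of at least 50 CPM had a median of 0.006, an SD of 0.060 and a 1st percentile of -0.15. The coefficient of variation of the 15 genes had a median of 2.49% (range 0.663% to 6.79%) among controls and of 8.12% (1.89% to 14.2%) among MEF2C-OE libraries, where counting error alone amounts to 0.151% to 1.75%. Proportions among the coding genes did not share this spread: the coefficient of variation of a gene's share of the 13 coding genes had a median of 1.88% in the control and 1.53% in the MEF2C-OE libraries.

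Gene by gene, 6 of the 24 tested mitochondrial genes fell and 0 rose (edgeR quasi-likelihood test, Benjamini-Hochberg adjusted over all genes tested). Over all genes, 20.2% were called lower, 20.8% higher and 41.0% in either direction, so the share of mitochondrial genes called lower was near the background and none was called higher. At an unadjusted p under 0.05, 7 mitochondrial genes were lower and 0 higher, DESeq2 called 6 of 23 lower and 0 higher, and limma-voom called 5 of 24 lower and 0 higher. Control and MEF2C-OE ranges were separate for 12 of the 24 genes, all lower in MEF2C-OE, beside 48.8% of all genes. The median log2FC of the 24 genes was -0.16, against -0.011 over all genes. The counts depended on single libraries: 3 genes fell without control replicate 2, 4 without either other control replicate and 9 without MEF2C-OE replicate 3. Without MEF2C-OE replicate 2, 9 fell and 3 rose. The share of all genes called in each of these settings is not given here, so the counts cannot be set beside it.

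**Figure D2:**
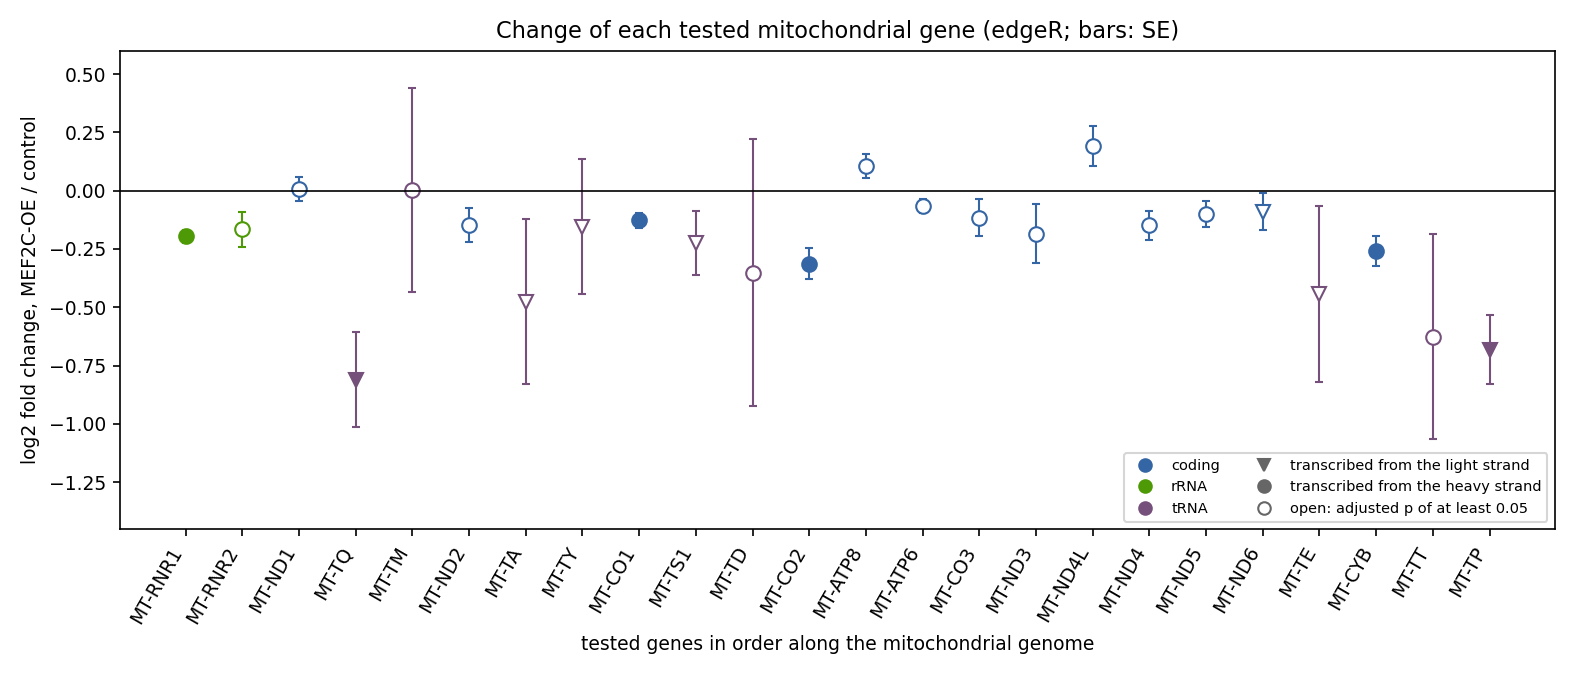
log2 fold change (MEF2C-OE over control, vertical axis) with its SE for the 24 tested genes in their order along the mitochondrial genome; colours mark the class, triangles the genes transcribed from the light strand and filled symbols an adjusted p under 0.05. The filled symbols are MT-RNR1, MT-TQ, MT-CO1, MT-CO2, MT-CYB and MT-TP, and all lie below 0.

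The rRNA genes encode the RNA scaffolds of the mitochondrial ribosome. MT-RNR1, the 12S rRNA of its small subunit (chromosome M, 648 to 1601, plus strand, GRCh38), had 229, 251 and 255 CPM in the control libraries and 211, 212 and 218 CPM in the MEF2C-OE libraries. All MEF2C-OE libraries were lower, and the log2FC was -0.20 (SE 0.030, adjusted p = 1.82e-06). This gene kept its call in all 16 alternative settings, and MEF2C-OE replicate 2 did not stand apart in it. MT-RNR2, the 16S rRNA of the large subunit (1671 to 3229, plus strand), had 2586, 2786 and 2657 CPM against 2445, 2156 and 2553 CPM. The groups did not overlap, but the log2FC of -0.17 (SE 0.076) did not pass the test at adjusted p = 0.170. Without MEF2C-OE replicate 2 it was -0.10 and called (adjusted p = 0.00928). The 16S to 12S read ratio was 10.9 ± 0.465 in the control and 11.2 ± 0.853 in the MEF2C-OE libraries, and rRNA reads per coding read were 0.127 ± 0.00425 and 0.124 ± 0.00140. Both ratios overlapped between the groups (exact permutation p = 0.6 and p = 0.4). The part of library preparation in the recovery of either rRNA was not tested.

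Complex IV, the cytochrome c oxidase that passes electrons to oxygen, has 3 mitochondrially encoded subunits. MT-CO1, the catalytic subunit and the gene with the second most reads in each library, had 8276, 8294 and 8088 CPM in the control and 7664, 7082 and 7839 CPM in the MEF2C-OE libraries. It fell with a log2FC of -0.13 (SE 0.032, adjusted p = 0.00806), and the call was lost with limma-voom and without control replicate 2. Without MEF2C-OE replicate 2 it stood at -0.08, still called. MT-CO2, the subunit that accepts electrons from cytochrome c (7586 to 8269, plus strand), had 2530, 2554 and 2521 CPM against 2097, 1852 and 2172 CPM. The controls were nearly identical and each MEF2C-OE library was clearly lower, a log2FC of -0.31 (SE 0.067, adjusted p = 0.0211). That call was lost with a replicate block (-0.32, adjusted p = 0.0512) and without any 1 control library (-0.32 to -0.31, adjusted p = 0.0643 to 0.0766). MT-CO3 had 1549, 1668 and 1595 CPM against 1501, 1335 and 1604 CPM, with overlapping groups, a log2FC of -0.12 (SE 0.080) and adjusted p = 0.343, and -0.05 without MEF2C-OE replicate 2.

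Complex III, which hands electrons from ubiquinol to cytochrome c, has a single mitochondrially encoded subunit, cytochrome b. Its gene MT-CYB (14747 to 15887, plus strand) had 1204, 1211 and 1191 CPM in the control and 1031, 913 and 1070 CPM in the MEF2C-OE libraries. The groups were well apart and the log2FC was -0.26 (SE 0.065, adjusted p = 0.0352). The call was lost without MEF2C-OE replicate 1 (-0.27, adjusted p = 0.0671) and without any 1 control library (-0.26 to -0.25, adjusted p = 0.0843 to 0.115).

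Complex I, the NADH dehydrogenase, has 7 mitochondrially encoded subunits, and 0 of the 7 passed the test in either direction with all 6 libraries, also at an unadjusted p under 0.05 (0 of 7) and with DESeq2 or limma-voom (0 of 7 each). MT-ND4, among the genes with most reads, had 3532, 3520 and 3470 CPM against 3256, 2892 and 3352 CPM (log2 fold change -0.15, adjusted p = 0.140). MT-ND5 had 2526, 2566 and 2494 CPM against 2427, 2172 and 2484 CPM (-0.10, adjusted p = 0.247), and MT-ND2 had 663, 696 and 671 CPM against 632, 550 and 651 CPM (-0.15, adjusted p = 0.204). For these 3 genes the groups did not overlap. MT-ND1 had 667, 666 and 646 CPM against 676, 612 and 703 CPM and a log2FC of 0.01 (adjusted p = 0.928). MT-ND3, the lowest of the heavy-strand messages by reads, had 150, 172 and 160 CPM against 148, 119 and 157 CPM (-0.18, adjusted p = 0.346). MT-ND6, the message transcribed from the light strand, had 60.2, 67.1 and 66.3 CPM against 63.8, 52.9 and 64.8 CPM (-0.09, adjusted p = 0.432). The calls in complex I turned on single libraries. Without MEF2C-OE replicate 2, MT-ND2 (-0.08) and MT-ND4 (-0.09) were called lower and MT-ND1 higher (0.06), while MT-ND5 (-0.04), MT-ND3 (-0.07) and MT-ND6 (-0.004) did not pass. Without MEF2C-OE replicate 3, MT-ND4 (-0.19) and MT-ND5 (-0.14) were called lower, and MT-ND5 also with no count filter (-0.10). Read against the heavy-strand messages, MT-ND6 did not separate the groups, with 2.81 ± 0.165 and 2.88 ± 0.127 reads per 1000 reads of the 12 heavy-strand coding genes.

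The remaining complex I gene, MT-ND4L, and the complex V gene MT-ATP8 had the highest positive log2FC values of the mitochondrial genome. Each is the upstream message of a pair that overlaps its neighbour and is kept on a single RNA with it, MT-ND4L with MT-ND4 and MT-ATP8 with MT-ATP6, a subunit of the proton channel of ATP synthase. Their sequences are shown because the overlaps define which bases can be assigned to either gene of a pair. Capitals mark the 46 bases of MT-ATP8 (8366 to 8572, plus strand) that also belong to MT-ATP6 and the 7 bases of MT-ND4L (10470 to 10766, plus strand) that also belong to MT-ND4, from the GENCODE 29 transcripts (GRCh38), 5′ to 3′.
MT-ATP8: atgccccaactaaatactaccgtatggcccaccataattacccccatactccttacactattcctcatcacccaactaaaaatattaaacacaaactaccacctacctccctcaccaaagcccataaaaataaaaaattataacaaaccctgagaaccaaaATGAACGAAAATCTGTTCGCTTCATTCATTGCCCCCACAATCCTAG
MT-ND4L: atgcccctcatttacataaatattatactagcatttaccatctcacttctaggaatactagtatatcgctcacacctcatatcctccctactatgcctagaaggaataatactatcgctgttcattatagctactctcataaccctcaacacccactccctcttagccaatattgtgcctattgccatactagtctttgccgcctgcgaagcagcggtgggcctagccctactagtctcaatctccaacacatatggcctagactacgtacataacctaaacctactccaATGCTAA

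MT-ND4L had 557, 585 and 556 CPM in the control and 670, 574 and 697 CPM in the MEF2C-OE libraries. MEF2C-OE replicates 1 and 3 were above every control, and replicate 2 lay among them. The log2FC of 0.19 (SE 0.085, adjusted p = 0.156) did not pass the test, and without MEF2C-OE replicate 2 it was 0.27 (adjusted p = 2.66e-15). MT-ATP8 had 309, 291 and 296 CPM against 325, 297 and 342 CPM, a log2FC of 0.11 (SE 0.052, adjusted p = 0.163), and 0.16 without MEF2C-OE replicate 2 (adjusted p = 3.98e-07). MT-ATP8 was also called higher with no count filter, with a replicate block and after correction for GC content and length (0.10 to 0.12). MT-ATP6 had 1052, 1019 and 1051 CPM against 1009, 933 and 1040 CPM, with overlapping groups and a log2FC of -0.07 (adjusted p = 0.0921). It was called lower in 5 of the 16 settings (-0.10 to -0.07) and had -0.02 without MEF2C-OE replicate 2.

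Since nearly all messages were low together in MEF2C-OE replicate 2, the proportions among the 13 coding genes were compared next. Control and MEF2C-OE ranges were separate for 7 of the 13 genes, 5 with a higher share in MEF2C-OE and 2 with a lower one, where 48.8% of all genes had separate ranges in CPM. Each had exact permutation p = 0.1, the smallest possible, and adjusted p = 0.186 over the 13. MT-ND4L held 2.41%, 2.51% and 2.44% of coding reads in the control and 3.11%, 2.96% and 3.14% in the MEF2C-OE libraries. MT-ATP8 held 1.34%, 1.249% and 1.30% against 1.51%, 1.53% and 1.54%, and MT-ND1 2.89%, 2.86% and 2.83% against 3.14%, 3.16% and 3.17%. For MT-ATP8 and MT-ND1 replicate 2 no longer stood apart from the other MEF2C-OE libraries as it did in the levels. For MT-ND4L it was still the lowest MEF2C-OE library, but above every control. MT-CO2 went the other way, from 10.96%, 10.96% and 11.1% to 9.76%, 9.56% and 9.79%, and MT-CYB from 5.22%, 5.20% and 5.22% to 4.80%, 4.71% and 4.83%. Smaller gaps with no overlap were found for MT-ATP6 (4.51 ± 0.124% and 4.73 ± 0.0723%) and MT-ND5 (10.96 ± 0.0388% and 11.2 ± 0.0502%). MT-CO1 held 35.6 ± 0.206% and 35.8 ± 0.616% and MT-ND4 15.2 ± 0.1004% and 15.1 ± 0.121%, both with overlapping groups.

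**Figure D3:**
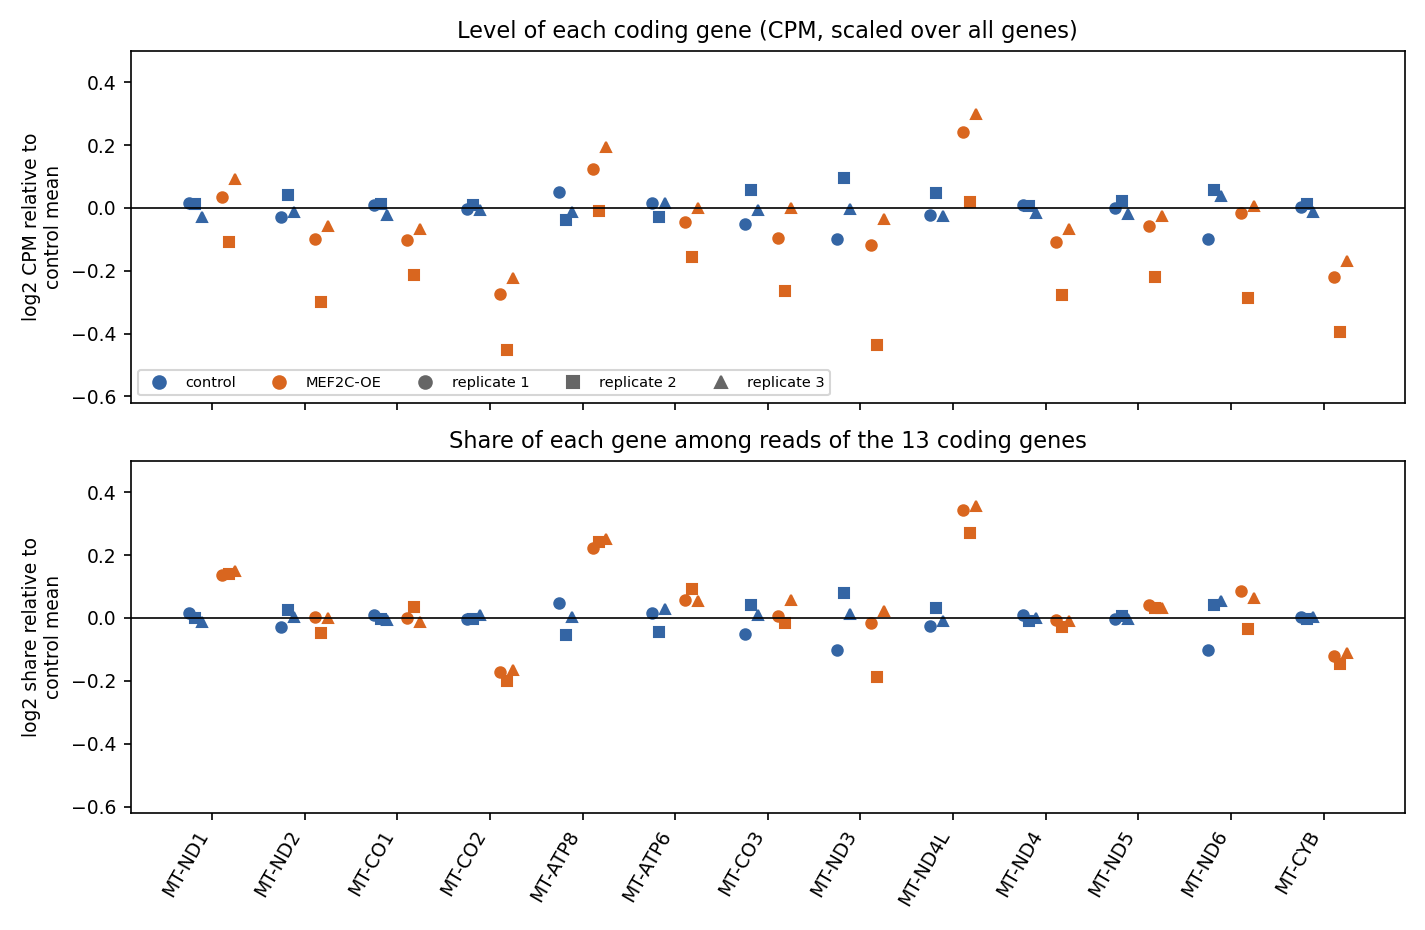
log2 level (CPM, top) and log2 share of the reads of the 13 coding genes (bottom) of each coding gene in each library, relative to the control mean; colours mark the groups and symbols the replicates. MEF2C-OE replicate 2 (orange squares) lies below the other MEF2C-OE libraries in the top panel, and in the bottom panel the 3 MEF2C-OE libraries lie together above the controls for MT-ND4L, MT-ATP8 and MT-ND1 and below them for MT-CO2 and MT-CYB.

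The same proportions were tested by an edgeR fit over all genes that used the reads of the 13 coding genes as the library size, an alternative chosen after the data were seen. On this scale 35.0% of all genes were called, 27.8% higher and 7.16% lower, with a median log2FC of 0.13, and among the 24 mitochondrial genes 2 were higher and 3 lower. MT-ND4L rose by 0.32 (SE 0.067, adjusted p = 1.39e-05) and kept this call in all 8 settings tried. MT-ATP8 rose by 0.24 (SE 0.068, adjusted p = 0.00233), with the call lost without control replicate 2 (0.21, adjusted p = 0.0607). MT-CO2 fell by 0.18 (adjusted p = 0.0208), and this call was lost with a replicate block (adjusted p = 0.0755), without any 1 control library and without MEF2C-OE replicate 1 (adjusted p = 0.0845 to 0.121). MT-ND1 and MT-CYB did not pass, at 0.14 (adjusted p = 0.0884) and -0.13 (adjusted p = 0.135). Both passed without MEF2C-OE replicate 2 (0.14 and -0.12), MT-ND1 also after correction for GC content and length (0.15). This scale carries the low coding total of MEF2C-OE replicate 2 into all nuclear genes, and the fit shares dispersion estimates between genes. Its SEs therefore do not measure the spread of the shares alone. For MT-ND1 the SE was 0.067, and 0.032 without MEF2C-OE replicate 2. The coefficient of variation of the MT-ND1 share was 0.993% in the control and 0.441% in the MEF2C-OE libraries. MT-RNR1, called on the scale of all genes, had -0.06 on this scale (adjusted p = 0.554), and -0.11 without MEF2C-OE replicate 2 (adjusted p = 0.00516). The other 2 lower genes were the tRNA genes MT-TQ and MT-TP, described below.

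Within the overlapping pairs, the upstream message had more reads relative to its partner in each MEF2C-OE library than in any control. MT-ND4L reads per MT-ND4 read were 0.158, 0.166 and 0.160 in the control and 0.206, 0.199 and 0.208 in the MEF2C-OE libraries. MT-ATP8 reads per MT-ATP6 read were 0.294, 0.286 and 0.282 against 0.322, 0.318 and 0.329. Neither pair of groups overlapped (exact permutation p = 0.1, adjusted p = 0.180 over 9 ratios). The files set ambiguous reads apart on a line of their own, so reads from the shared bases may be counted for neither gene of a pair.

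Per length, the order of the messages and rRNAs by reads was nearly the same in both groups. In the control libraries MT-CO1 was highest at 5330 ± 73.9 CPM per kilobase, followed by MT-CO2 at 3706 ± 24.6, MT-ND4 at 2545 ± 23.7, MT-CO3 at 2046 ± 76.3 and MT-ND4L at 1906 ± 55.5. MT-RNR2 at 1717 ± 64.9, MT-ATP6 at 1528 ± 27.3, MT-ATP8 at 1443 ± 45.6 and MT-ND5 at 1395 ± 19.8 came next, and MT-ATP8 and MT-ND5 were the only neighbours in the order whose ranges overlapped in the control group. MT-CYB at 1053 ± 9.03, MT-ND1 at 690 ± 12.2, MT-ND2 at 649 ± 16.2, MT-ND3 at 464 ± 31.5, MT-RNR1 at 257 ± 14.8 and MT-ND6 at 123 ± 7.16 CPM per kilobase closed the order. In the MEF2C-OE libraries MT-ND4L stood at rank 4 with 2178 ± 217 CPM per kilobase, above MT-CO3 at 1888 ± 174, and MT-ATP8 at rank 6 with 1553 ± 110. All neighbours between MT-ND4 and MT-ND5 in that group overlapped, other than MT-CO3 and MT-ATP8. Levels were divided by full gene length, although reads from bases shared within a pair, or not uniquely aligned, may go uncounted. Their part in this order was not tested, nor was that of library preparation in the recovery of the rRNAs and of each message. The order is one of counted reads and not of transcript number.

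The tRNA genes were covered unevenly along the genome. Of the 22, 7 had 0 reads in each library: MT-TN, MT-TK, MT-TG, MT-TR, MT-TH, MT-TS2 and MT-TL2. By counting error alone, 0 reads allow up to 0.0527 to 0.0622 CPM (3 reads), for reads that can be counted to the gene. Another 6 did not pass the count filter, MT-TF, MT-TV, MT-TL1, MT-TI, MT-TW and MT-TC, with 0 to 13 reads per library. The 10 tRNA genes with at most 31 free bases to the next same-strand gene on each side had 0 to 2 reads per library. All 7 genes without reads were among these 10. Reads that reach into a neighbour may be set apart as ambiguous, so 0 reads do not bound the level of these genes. The 12 tRNA genes with at least 70 free bases on a side, or with no same-strand gene on a side, had 0 to 238 reads. Among these 12 the 6 light-strand genes had 17 to 238 reads per library and the 6 heavy-strand genes 0 to 28. Both strands are transcribed in full, and any part of heavy-strand RNA in the light-strand counts was not tested. Gene counts do not separate mature tRNAs from longer precursors.

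Both tRNA genes that fell, MT-TQ for glutamine and MT-TP for proline, are transcribed from the light strand. They are shown with MT-TS1 for serine, a light-strand tRNA gene of similar read number to MT-TP, which did not pass the test. Sequences are given 5′ to 3′ with the anticodon in capitals, from GENCODE 29 (GRCh38, chromosome M, minus strand, 4329 to 4400 for MT-TQ, 15956 to 16023 for MT-TP and 7446 to 7514 for MT-TS1).
MT-TQ: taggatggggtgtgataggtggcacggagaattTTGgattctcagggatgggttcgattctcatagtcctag
MT-TP: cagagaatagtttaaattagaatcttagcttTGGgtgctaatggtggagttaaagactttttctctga
MT-TS1: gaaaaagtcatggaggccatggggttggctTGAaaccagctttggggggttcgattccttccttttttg

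MT-TQ had 127, 143 and 102 reads in the control libraries and 67, 61 and 86 reads in the MEF2C-OE libraries. All MEF2C-OE libraries were lower, with a log2FC of -0.81 (SE 0.20, adjusted p = 0.00104). MT-TP had 208, 225 and 230 reads against 143, 109 and 167, again without overlap, and a log2FC of -0.68 (SE 0.15, adjusted p = 2.25e-04). Both genes kept their call in all 16 alternative settings, with log2FC values of -0.91 to -0.60 for MT-TQ and -0.78 to -0.55 for MT-TP. MT-TS1 had 4.25, 4.07 and 3.82 CPM against 3.53, 3.15 and 3.71 CPM, a log2FC of -0.22 (SE 0.14, adjusted p = 0.199), and -0.001 after correction for GC content and length.

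The other light-strand tRNA genes tested, MT-TA for alanine (-0.48), MT-TE for glutamate (-0.44) and MT-TY for tyrosine (-0.15), had 17 to 56 reads per library, overlapping groups and adjusted p of 0.307, 0.377 and 0.719. The 3 heavy-strand tRNA genes tested did not pass either: MT-TM for methionine (0.00, SE 0.44), MT-TD for aspartate (-0.35, SE 0.57) and MT-TT for threonine (-0.63, SE 0.44) had 7 to 28 reads per library. At these depths the SEs of the 6 genes were 0.29 to 0.57, so a change that did not pass cannot be read as absent.

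Relative to the coding reads, MT-TQ and MT-TP together had 259, 299 and 286 reads per 1000000 coding reads in the control and 178, 180 and 200 in the MEF2C-OE libraries. In this ratio MEF2C-OE replicate 2 lay between the other MEF2C-OE libraries, and its value was far below every control. MT-TA, MT-TY, MT-TS1 and MT-TE together had 280, 273 and 278 against 240, 251 and 267. Neither pair of groups overlapped (exact permutation p = 0.1, adjusted p = 0.180), and the log2 ratios were -0.60 and -0.13. These 2 sums were formed after their values were seen. In the edgeR fit on coding reads MT-TP had a log2FC of -0.55 (SE 0.16, adjusted p = 0.00349), called in all 8 settings, and MT-TQ one of -0.68 (SE 0.22, adjusted p = 0.00763). The MT-TQ call was lost after correction for GC content and length (-0.47, adjusted p = 0.0860), without control replicate 2 (-0.56, adjusted p = 0.0884) and without MEF2C-OE replicate 1 (-0.60, adjusted p = 0.0517).

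**Figure D4:**
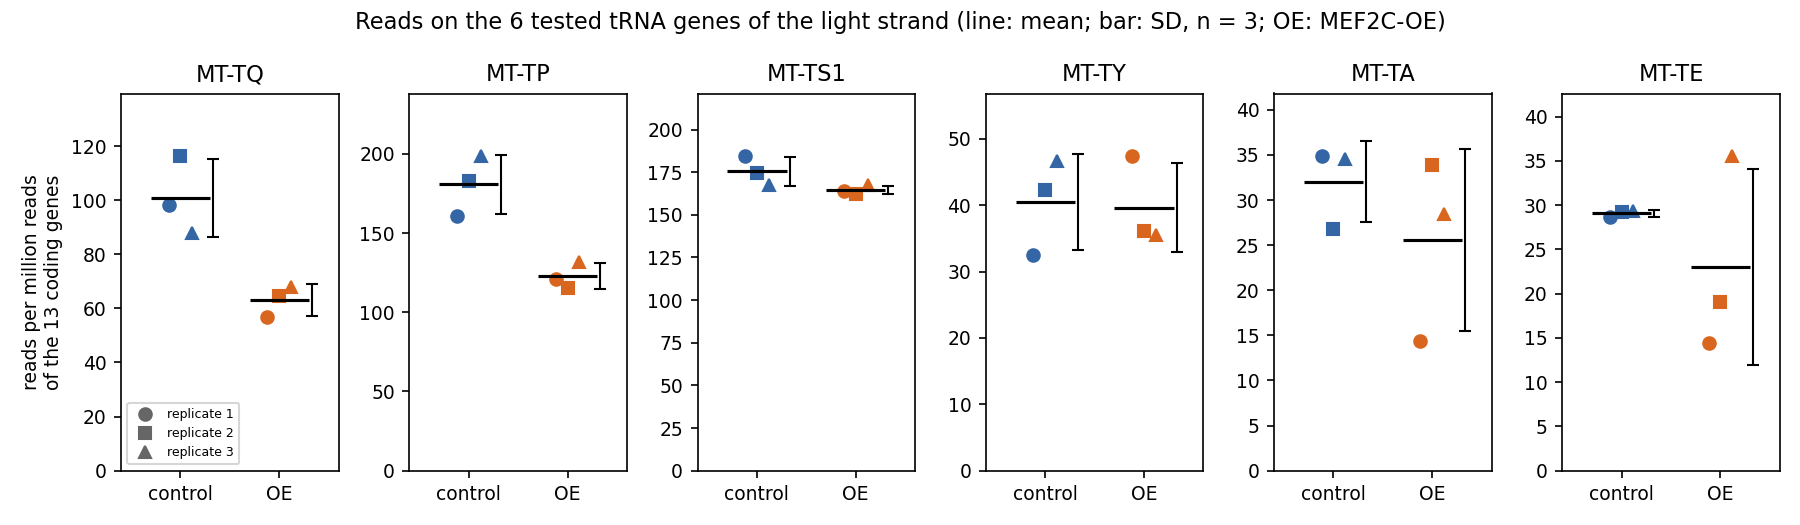
Reads per 1000000 reads of the 13 coding genes (vertical axes from 0, each panel with its own scale) for the 6 tested tRNA genes of the light strand; symbols mark replicates, lines the means and bars the SD (n = 3). The groups are apart for MT-TQ and MT-TP, nearly touch for MT-TS1 and overlap for MT-TY, MT-TA and MT-TE.

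Copies of mitochondrial sequence in the nuclear genome can share reads with the genes above. Of 404 annotated pseudogenes named for mitochondrial genes, 7 matched at least 80% of a gene's length at 95.02% to 98.6% identity, those of MT-ATP6, MT-ATP8, MT-CO1, MT-CO2, MT-ND2, MT-ND4 and MT-ND6. The copy MTATP6P1 had 7963, 8596 and 6954 reads in the control and 8356, 5748 and 9881 in the MEF2C-OE libraries. The copies of MT-CO2 and MT-ATP8 had at most 8 and 5 reads per library, against at least 90101 and 14439 reads for the genes themselves. Reads that align to more than 1 place were not counted, which can lower the levels of these 7 genes, and by how much was not tested.

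The nuclear factors that act on mitochondrial RNA moved in both directions. Of 10 transcription factors and cofactors tested, 1 rose and 4 fell, where 20.8% of all genes were called higher and 20.2% lower, with a median log2FC of 0.001 beside -0.011 over all genes. POLRMT, the mitochondrial RNA polymerase, had 66.2, 66.1 and 62.5 CPM in the control and 47.6, 53.1 and 44.6 CPM in the MEF2C-OE libraries, without overlap. It fell with a log2FC of -0.43 (SE 0.046, adjusted p = 1.08e-09), and stood at -0.24 after correction for GC content and length (adjusted p = 9.72e-06). TFB2M, which opens the promoter for the polymerase, fell by 0.23 on the log2 scale (adjusted p = 0.0174), with the call lost without control replicate 3 (-0.17, adjusted p = 0.127) and without MEF2C-OE replicate 1 (-0.21, adjusted p = 0.0714). MRPL12, a ribosomal protein that also binds the polymerase, fell by 0.64 at 2.78 ± 0.154 CPM in MEF2C-OE (adjusted p = 2.69e-04). MTERF2, a member of the termination factor family, had -0.28 (adjusted p = 0.0476) with overlapping groups, and 9 of 16 settings lost the call. TFAM, which bends promoter DNA and packages the genome, had 99.2, 99.2 and 100.2 CPM against 104, 109 and 104 CPM and rose by 0.09 (adjusted p = 0.0210), but after correction for GC content and length it stood at -0.04 (adjusted p = 0.363). The TFAM call was also lost with upper-quartile scaling (0.07, adjusted p = 0.0609), without control replicate 1 or 2 (both 0.08) and without MEF2C-OE replicate 2 (0.06). TEFM, the elongation factor, had 0.11 (adjusted p = 0.322).

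Of 22 genes of RNA processing and modification, 5 rose and 8 fell (median -0.05), against the same 20.8% and 20.2% of all genes. ELAC2, which cuts the 3′ ends of tRNAs, fell by 0.35 (adjusted p = 1.94e-12) from 103 ± 0.770 to 80.6 ± 2.09 CPM. TRMT10C, a subunit of the enzyme that cuts their 5′ ends, fell by 0.32 (adjusted p = 3.07e-05), and RPUSD4, a pseudouridine synthase, by 0.39 (adjusted p = 2.81e-08). HSD17B10, a partner of TRMT10C in that enzyme, rose by 0.25 (adjusted p = 3.31e-05), with PTCD2 (0.22), MTO1 (0.21), NSUN3 (0.15) and NSUN4 (0.24) the other genes that rose, all 5 named after their values were seen. After correction for GC content and length, 2 genes of this list were called higher, and the share of all genes called in that fit is not given here. GTPBP3, which modifies the wobble base of several mitochondrial tRNAs, fell by 0.27, and its call was lost after correction for GC content and length (-0.07, adjusted p = 0.278).

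Of 14 genes of RNA stability and decay, 2 rose and 6 fell (median -0.09), beside 20.8% and 20.2% of all genes. SLIRP, which with LRPPRC forms the complex that holds mitochondrial messages stable, fell by 0.26 (adjusted p = 0.00234) from 18.4 ± 0.915 to 15.4 ± 0.786 CPM. LRPPRC itself had 214, 203 and 216 CPM against 207, 206 and 200 CPM, a log2FC of -0.05 (adjusted p = 0.142), and -0.16 after correction for GC content and length (adjusted p = 8.26e-07). TBRG4 (-0.29), FASTKD1 (-0.24) and FASTKD3 (-0.20), RNA-binding proteins of the FASTK family, fell. The FASTKD3 call was lost without control replicate 2 (-0.18, adjusted p = 0.0559) and without MEF2C-OE replicate 2 (adjusted p = 0.0507), and TBRG4 stood at -0.19 after correction for GC content and length, still called. REXO2, an exonuclease for short RNAs, rose by 0.19 and ANGEL2 by 0.15, both named after their values were seen.

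Among 17 genes of DNA replication and the nucleoid, 8 rose and 7 fell (median 0.01), where 20.8% of all genes were called higher and 20.2% lower. POLG, the catalytic subunit of the mitochondrial DNA polymerase, fell by 0.38 (adjusted p = 3.93e-18) from 391 ± 1.73 to 301 ± 2.94 CPM, and the membrane-bound nucleoid protein ATAD3B fell by 0.48. After correction for GC content and length these 2 genes stood at -0.25 and -0.31, both still called. TK2, the thymidine kinase of the organelle, rose by 0.48 (adjusted p = 1.12e-07) from 17.9 ± 1.16 to 25.0 ± 2.36 CPM, and PRIMPOL, a primase and polymerase, by 0.34. Of 10 regulators of biogenesis tested, 6 rose and 2 fell (median 0.10), beside the same shares of all genes. PPARA, a nuclear receptor for fatty acids, rose by 0.31, while the nuclear receptor ESRRA fell by 0.44 and the coactivator PPRC1 by 0.23. Their values after that correction were 0.18 for PPARA, -0.21 for ESRRA and -0.15 for PPRC1, all still called. GABPA, a transcription factor of respiratory genes, rose by 0.15, and its call was lost after correction for GC content and length (0.02, adjusted p = 0.575). Enough other calls were lost that 3 of the 10 regulators were then called higher, without a share of all genes from that fit to set beside this count. Of 11 translation factors, 2 rose and 3 fell (median 0.002), again beside 20.8% and 20.2% of all genes. The initiation factor MTIF2 rose by 0.25 and the release factor MTRF1 by 0.18, while the recycling factor MRRF fell by 0.25, MTRFR by 0.16 and MTIF3, named after its value was seen, by 0.13. MRRF stood at -0.40 after correction for GC content and length.

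Most nuclear genes for subunits of the same respiratory complexes fell. Of 37 nuclear complex I genes 23 fell and 1 rose, of 9 complex III genes 7 fell, of 11 complex IV genes 9 fell and of 17 complex V genes 14 fell, beside 20.2% of all genes called lower. The medians were -0.20, -0.25, -0.22 and -0.22, beside -0.12 for the 13 mitochondrially encoded genes. Among the largest falls were COX7C of complex IV (-0.64, from 148 ± 8.33 to 94.5 ± 4.20 CPM), NDUFS5 of complex I (-0.51), ATP5F1D of complex V (-0.46) and UQCRFS1, the Rieske protein of complex III (-0.37). The nuclear complex I gene that rose was NDUFC2 (0.33), named after its value was seen. The log2 ratio of MEF2C-OE replicate 2 to the mean of the other MEF2C-OE libraries had a median of -0.03 (range -0.37 to 0.18) over these 74 nuclear genes, and replicate 2 was the lowest MEF2C-OE library for 37 of them. After correction for GC content and length ATP5F1D stood at -0.23, still called. More nuclear complex I and complex III genes were called higher after that correction, with the numbers given in the last section.

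**Figure D5:**
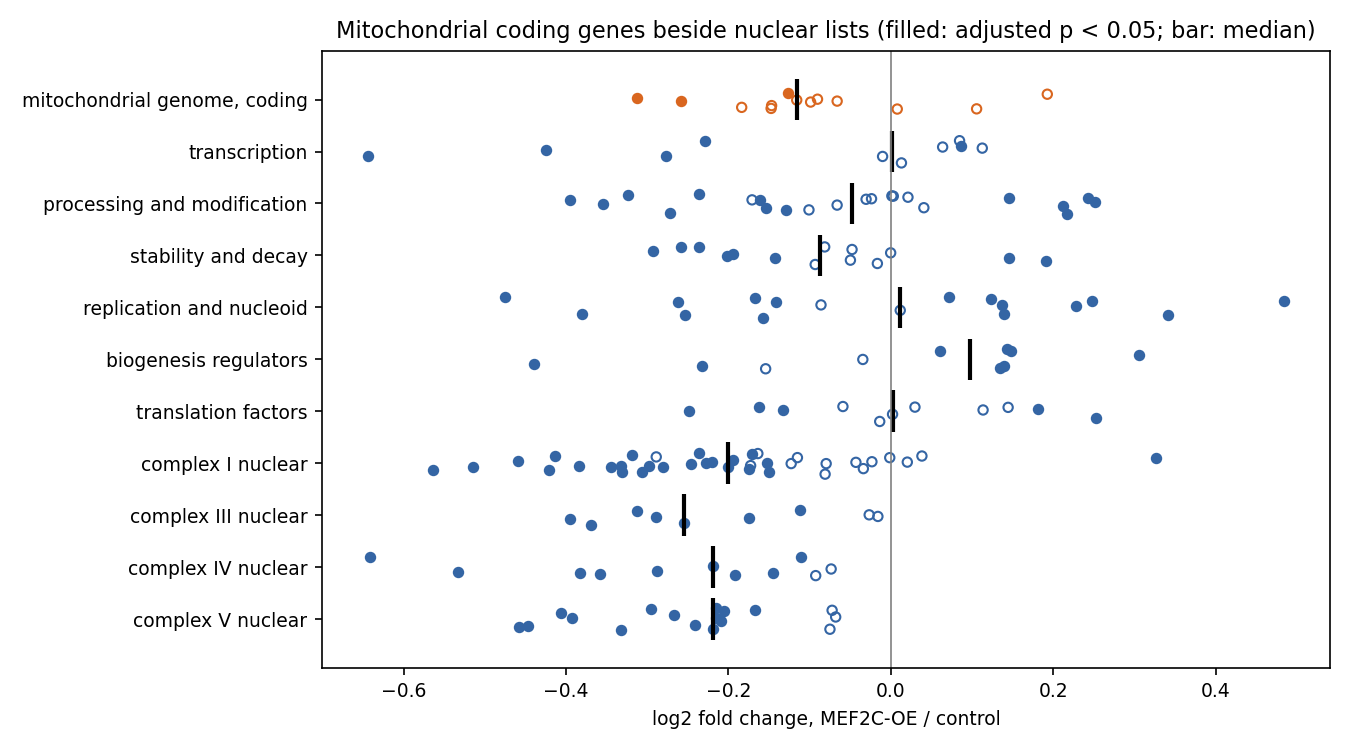
log2 fold change (MEF2C-OE over control, horizontal axis) of each tested gene in the mitochondrial coding set and in 10 lists of nuclear genes; filled points have an adjusted p under 0.05 and black bars are medians. The nuclear respiratory subunits lie mostly below 0, with medians of -0.25 to -0.20, and the lists of transcription, replication and translation genes have medians close to 0.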

How the data were processed

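The authors deposited 1 table of raw gene counts per library, made with Trim Galore, STAR and HTSeq on hg38, per the submitters' processing notes. The sources used here do not state versions, annotation release, strand setting or filters. RNA was extracted with TRIzol and libraries were TruSeq, per the labels' protocols. The 5 summary lines of each file, left out of library sizes and tests, held 20.9% to 21.8% of the total as reads outside features, 3.31% to 3.46% as ambiguous and 4.03% to 4.68% as not uniquely aligned. Symbols matched 61481 identifiers. Coordinates and sequences came from GENCODE 29 (GRCh38). Replicates differed by more than counting noise (chi-square per degree of freedom 3.08 to 5.17).

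Counts were tested in R 4.3.3 with edgeR 4.0.16 (filterByExpr, TMM, robust quasi-likelihood, Benjamini-Hochberg over 19086 genes, called at an adjusted p under 0.05). CPM values were scaled by TMM, and shares were taken of assigned reads. Checked on a simulated MEF2C-OE against control comparison of 19086 genes, the test found 23, 32, 42 and 45 of 50 genes altered by factors of 1.25, 1.5, 2 and 4, and called 9 of the 18886 left unaltered. Shares and ratios were compared by exact two-sided permutation tests. Alternatives were other scalings, count filters, DESeq2 1.42.0, limma 3.58.1 voom, a replicate block, removal of a spline trend on GC content and length (known for 88.8% of genes tested), and the removal of each library. The mitochondrial genes, the gene lists and the tests were chosen with earlier results of these data known. The text names all coding and rRNA genes, tRNA genes that passed the filter, 6 fixed nuclear factors, and, from each list, the called members of largest change at 1 CPM or more, 4 at most. Figures were drawn with matplotlib 3.10.9.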

Additional observations from a re-analysis of the deposited data

How the results depend on the processing

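Over the alternatives, the number of mitochondrial genes called lower ranged from 3 (without control replicate 2) to 9 (without MEF2C-OE replicate 2 or 3) when 1 library was left out. The number called higher was 0 in the main analysis, 1 with no count filter, after correction for GC content and length and with a replicate block, and 0 to 3 when 1 library was left out. After correction for GC content and length, genes called higher numbered 0 for transcription, 2 for processing and modification, 1 for stability and decay, 3 for biogenesis regulators, 2 for nuclear complex I and 2 for nuclear complex III, and TFAM stood at a log2 fold change of -0.038. Transcription genes called higher numbered 2 with library totals and 0 with upper-quartile scaling. Leaving out 1 library gave 2 to 4 transcription genes called lower and 0 to 1 called higher, and 1 to 2 nuclear complex I genes called higher. The shares of all genes called in these settings are not given here, so the counts cannot be set beside them. The cause of the differences between settings was not tested.

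With a replicate block 6 mitochondrial genes were called lower, without MT-CO2 and with MT-ATP6, and 1 higher, MT-ATP8. Same-numbered libraries did not deviate together (correlations 0.006, 0.012 and -0.003), so the numbers were not taken to pair the samples, and not every library correlated best with its own number. The precision of the tRNA values is limited by counts of 7 to 238 reads among the genes tested.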
